A study of Mus musculus with 3 samples.

Results

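Tra2β iCLIP crosslinks were examined in the DEAD and DEAH box RNA helicase genes of the mouse. Members were the protein-coding genes of the GENCODE vM39 annotation with a Ddx or Dhx symbol followed by a digit, with 1 gene of that family not reported here, which gave 51 genes of 21770 protein-coding genes. The libraries came from testes of adult wild type mice, with mixed cell types. By the study's methods, mincing the testes released germ cells, which were crosslinked with ultraviolet light. Tra2β was then pulled down with a polyclonal anti-Tra2b antibody. The 3 biological replicates form a single group, and libraries without Tra2β, from input RNA or with a control antibody were not analysed here. Every comparison was therefore made within a library, between exons and introns, between exons or introns of a gene, or between the helicase genes and the other 21719 protein-coding genes. A crosslink is 1 unique cDNA at 1 nucleotide, counted on its own strand in the exons and introns of the canonical transcript of each gene.

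Helicases of this superfamily use ATP to unwind short RNA duplexes or to remodel RNA-protein complexes. They are named after the amino acids of a conserved ATPase motif, Asp-Glu-Ala-Asp in the DEAD box group and Asp-Glu-Ala-His in the DEAH box group. Many steps of spliceosome assembly, activation and release need such an enzyme, and others act in ribosome assembly, mRNA export, translation and decay. Outside the conserved helicase core, many members carry charged extensions rich in lysine, arginine, glutamate or serine at either end. Tra2β is a splicing regulator that binds GAA-rich RNA and activates exons, and codons for lysine (AAA and AAG) and glutamate (GAA and GAG) make up such sequence.

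The libraries held 348033, 619571 and 488719 crosslinks in replicates 1, 2 and 3. Of these, 224454, 306672 and 344580 lay in protein-coding genes, and CPM values are crosslinks scaled to 1000000 of these. A count of 0 allows up to 13.4, 9.78 and 8.71 CPM in the same order, set at 3 counts, and limits and intervals cover counting error only. Replicate 2 stood apart, with 26.8% of crosslinks of the other protein-coding genes in exons, against 43.0% in replicate 1 and 55.6% in replicate 3. Markers of meiotic germ cells (4 of 4 genes, with 132, 210 and 312 crosslinks summed in replicates 1, 2 and 3) and of spermatids (4 of 4 genes, with 365, 147 and 655) were all crosslinked, while a list of 4 genes of other tissues held 2 crosslinks in all. Lists for spermatogonia, Sertoli cells and Leydig cells held 131, 160 and 115, with Amh of the Sertoli list at 0. The part of cell makeup in the differences between replicates was not tested.

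All 51 helicase genes carried crosslinks. They held 929, 926 and 1727 crosslinks in replicates 1, 2 and 3, which was 0.406% ± 0.0999 (SD, n = 3) of those in protein-coding genes. The median helicase gene had 42 crosslinks over the 3 libraries and the median other gene 6. In all 3 libraries, 50 of 51 helicase genes were crosslinked, against 50.5% of other genes. By mean CPM, 11 of the 51 (21.6%) ranked among the highest 10% of protein-coding genes, which is rank 2177 or better. Without replicate 3 this number was 7. These counts were not divided by the level of the RNA, so more RNA and more contacts per RNA cannot be told apart. CPM over a whole gene also grows with gene length, and the median exonic length of the canonical transcript was 3925 nt in helicase genes against 2912 nt in other genes. Scaled per kb of exon as well as by library (CPM per kb), the median exonic level was 7.46 in helicase genes and 0.686 in other genes, and 15 helicase genes were in the highest 10%.

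**Figure D1:**
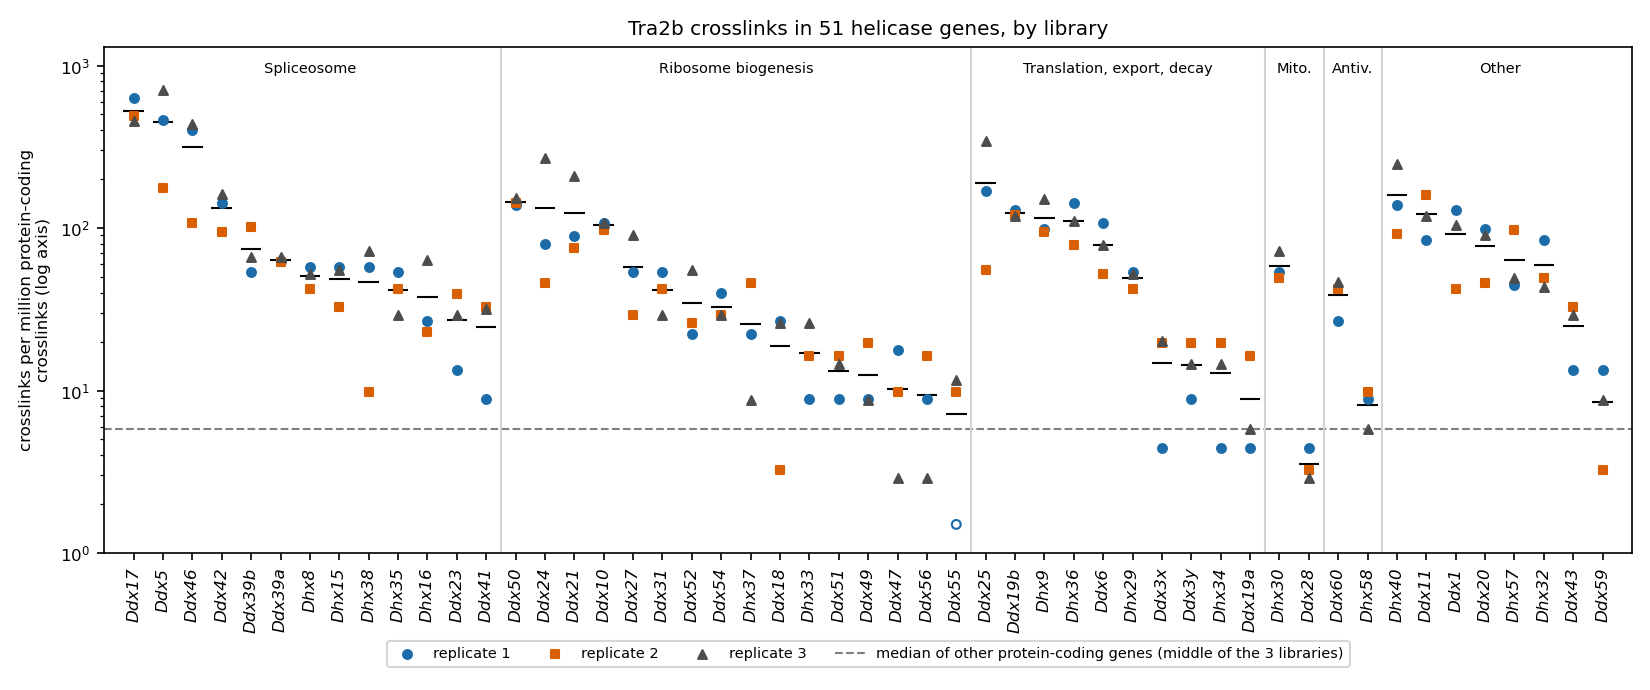
CPM (log axis) in each of 51 helicase genes, grouped by role, with a marker per library and a bar at the mean. The open circle stands for the single count of 0 (Ddx55, replicate 1), the dashed line is the middle of the 3 library medians of other genes (5.80 CPM), and Ddx17, Ddx5 and Ddx46 lie highest, with replicate 2 well below the others for Ddx5 and Ddx46.

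The genes of 3 spliceosomal helicases led the ranking. Ddx17 (chr15:79411937-79430942, minus strand, GRCm39) had 142, 149 and 158 crosslinks in replicates 1, 2 and 3, a mean of 525.7 CPM ± 93.6 (SD, n = 3) and rank 246. Its paralog Ddx5 (chr11:106671180-106679358, minus strand) had 104, 54 and 245 crosslinks, 450.1 CPM ± 267.7 and rank 342. Both encode DEAD box proteins that act in splicing, transcription and microRNA processing. Ddx46, which encodes the spliceosomal ATPase known in yeast as Prp5 (chr13:55782864-55829069, plus strand), had 90, 33 and 151 crosslinks, 315.6 CPM ± 181.1 and rank 641. The order of Ddx17 and Ddx5 did not hold beyond the spread between replicates, since Ddx5 was above Ddx17 only in replicate 3. Ddx46 was below both in each library, though its mean lay within the spread of Ddx5. The 3 genes took 31.4% of all helicase crosslinks. In exonic CPM per kb of exon, Ddx5 came first with 89.9 ± 65.5, and Ddx17 (50.1 ± 13.9) and Ddx46 (49.4 ± 31.3) were within their spread of each other.

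Among genes for translation, export and decay, Ddx25, which encodes a testis helicase of spermatids, had 38, 17 and 119 crosslinks and 190.0 CPM ± 146.1. Ddx19b, which encodes an mRNA export factor at the nuclear pore, had 29, 37 and 41 crosslinks and 122.9 CPM ± 5.48. Ddx25 was lower than Ddx19b in replicate 2 and higher in the others. Among ribosome biogenesis genes, Ddx50 held 31, 44 and 53 crosslinks (145.1 CPM ± 7.98), and its neighbour and paralog Ddx21, a nucleolar helicase, held 20, 23 and 72 (124.4 CPM ± 73.6). Ddx24, another nucleolar member, held 18, 14 and 93 (131.9 CPM ± 121). For Ddx24 and Ddx21, replicate 3 lay far above the other libraries. Dhx40, whose protein has a less studied role, had 31, 28 and 85 crosslinks (158.7 CPM ± 79.7), and the splicing helicase gene Ddx42 had 32, 29 and 56 (133.2 CPM ± 34.9).

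At the other end, Ddx28, a mitochondrial helicase gene with a single exon, had 1 crosslink in each library. Ddx55 had 0, 3 and 4, and Ddx59 had 3, 1 and 3. These counts do not pass the limit that a count of 0 allows in most libraries, so their order is not defined. Among close paralogs, exonic CPM per kb of exon was 10.02 ± 2.41 (SD, n = 3) in Ddx19b and 0.850 ± 0.762 in Ddx19a, both genes for the same export step. The spreads overlapped for Ddx39b (17.2 ± 4.84) and Ddx39a (21.2 ± 4.71), which act in splicing and export, and for the X-linked Ddx3x (2.26 ± 1.23) and the Y-linked Ddx3y (1.18 ± 0.618), which act in translation. D1Pas1, an intronless germ cell relative of Ddx3x that lies outside the rule, had 46, 11 and 61 crosslinks. How reads matching several such copies were treated is not given in the sources used here, so values of near-identical copies are uncertain.

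The helicase genes were then divided into exons and introns. Exons held 62.3%, 47.2% and 70.5% of their crosslinks in replicates 1, 2 and 3. By the Clopper-Pearson method, the 95% intervals of these shares ran from 59.1 to 65.5, from 43.9 to 50.5 and from 68.3 to 72.6. The other protein-coding genes had 43.0%, 26.8% and 55.6%. The helicase share was higher in each library, and it was 64.3%, 48.5% and 72.0% without Ddx5 and Ddx17. Among the 37 helicase genes with at least 20 crosslinks, the exon share ran from 20% to 92.7%, with a median of 65.0% against 36.3% in other genes with introns. Per nucleotide the contrast was smaller. Exon density over intron density was 10.4, 5.595 and 14.9 in helicase genes and 8.91, 4.31 and 14.7 in other genes, and in replicate 3 these nearly coincided.

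To ask which genes differed from the average, exon and intron counts of each gene were compared with the ratio over all genes in edgeR's quasi-likelihood test, over 6907 genes. Of the 37 helicase genes that reached 20 crosslinks, 19 were higher in exon share at an adjusted p under 0.05, against 18.5% of all genes tested. Another 1, Ddx50, was lower, against 24.9% of all genes tested, and 17 were not called. The median log2 difference was 1.32 over the helicase genes and -0.31 over all genes tested, and with length offsets it was -0.20 and -0.57. The number of helicase genes called higher was 8 without replicate 1, 15 without replicate 2 and 8 without replicate 3, and 13 with DESeq2, where 12%, 23.7%, 13.3% and 14.5% of all genes tested were called higher. In every one of the alternatives that did not change lengths, 6 of the 19 were called: Ddx5, Ddx11, Ddx21, Ddx27, Ddx46 and Dhx9. With exon and intron lengths as offsets, which turns the comparison into one per nucleotide, 3 helicase genes were higher (6.23% of all genes tested were), namely Ddx46, Ddx27 and Ddx10, and 4 were lower (14.8% of all genes tested were), namely Ddx5, Ddx17, Ddx19b and Ddx50. Ddx46 and Ddx27 were the members called higher in every setting.

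**Figure D2:**
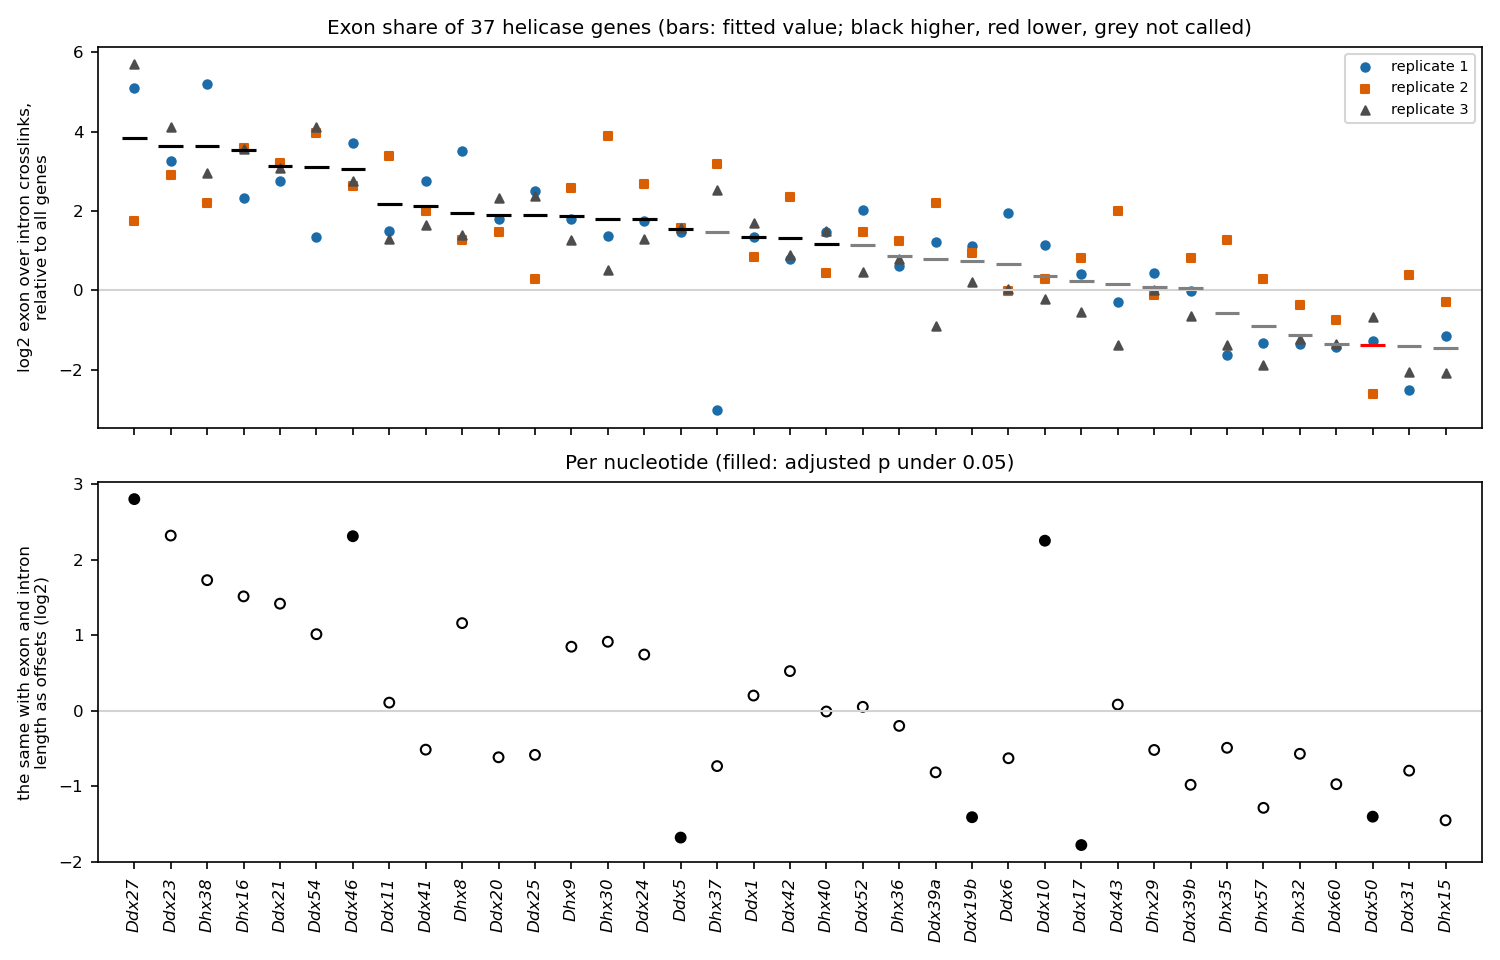
Upper panel, log2 of exon over intron crosslinks relative to all protein-coding genes for 37 helicase genes, with a marker per library and a bar at the fitted value (black higher, red lower, grey not called). Lower panel, the fitted value with exon and intron lengths as offsets, where filled circles have an adjusted p under 0.05 and Ddx5 and Ddx17 lie below 0 while Ddx27, Ddx46 and Ddx10 stay above 2.

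By role, 8 of 13 tested spliceosomal genes were higher in exon share, where 18.5% of all genes tested were. With length offsets, only Ddx46 of these 8 was called higher, and Ddx5 was called lower (log2 difference -1.68). Ddx46 had 82, 23 and 135 exonic crosslinks and 8, 10 and 16 intronic crosslinks, although its introns span 40594 nt and its exons 5612 nt. Exons thus held most of its crosslinks in each library. Its log2 difference was 3.06 (SD of the library values 0.60, n = 3; edgeR adjusted p = 4.90e-06). Ddx5 had 70, 28 and 192 exonic and 34, 26 and 53 intronic crosslinks, a log2 difference of 1.54 (SD 0.05) that was nearly the same in the 3 libraries. The others called were Ddx23, Dhx38 and Dhx16, with log2 differences of 3.64, 3.64 and 3.54, and Ddx41, Dhx8 and Ddx42 with 2.13, 1.96 and 1.32, where Ddx42 had 0.86 without replicate 2. Ddx23, Dhx38, Dhx16 and Dhx8 encode the ATPases called Prp28, Prp16, Prp2 and Prp22 in yeast, which drive spliceosome activation, remodelling between the steps, and mRNA release. Ddx41 and Ddx23 rested on 23 and 25 crosslinks in all. Dhx15, the helicase of spliceosome disassembly, pointed the other way with 9 exonic and 33 intronic crosslinks but was not called (log2 difference -1.46, edgeR adjusted p = 0.0947).

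Of 9 tested ribosome biogenesis genes, 4 were higher, where 18.5% of all genes tested were. Ddx27, needed for ribosomal RNA maturation, had 12, 5 and 31 exonic and 0, 4 and 0 intronic crosslinks, a log2 difference of 3.83 (SD 2.12) that was 7.39 without replicate 2 and 3.00 without replicate 3. Ddx21 had 17, 18 and 66 exonic and 3, 5 and 6 intronic crosslinks (3.13, SD 0.23), Ddx54 had 24 exonic and 4 intronic crosslinks over the libraries (3.10, SD 1.56), and Ddx24 had 13, 10 and 70 exonic and 5, 4 and 23 intronic crosslinks (1.79, SD 0.71). Ddx21 was the most even of these over the libraries. In Ddx50, introns held more, with 24, 42 and 30 intronic and 7, 2 and 23 exonic crosslinks (log2 difference -1.36, SD 1.00; edgeR adjusted p = 0.0289), and the difference was -0.89 without replicate 2. Of its intronic crosslinks, 7, 13 and 15 lay in intron 1. When exons of all annotated transcripts were counted, Ddx50 turned to a log2 difference of 1.72 (edgeR adjusted p = 0.000938), so its call depends on which transcript defines an intron. Ddx17 was called higher in that setting too (2.13), from 0.23 and no call with the canonical transcript. Ddx50 also lost the call with DESeq2 (adjusted p = 0.157).

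Of 6 tested genes for translation, export and decay, 2 were higher, where 18.5% of all genes tested were. Dhx9, a DEAH box helicase of the nucleus and cytoplasm, had 16, 20 and 39 exonic and 6, 9 and 13 intronic crosslinks (log2 difference 1.88, SD 0.66). Ddx25 had 31, 5 and 103 exonic and 7, 12 and 16 intronic crosslinks (1.90, SD 1.25), so its exon share was 29.4% in replicate 2 and 81.6% and 86.6% in the others. Of the 7 tested genes outside these roles, 4 were higher, where 18.5% of all genes tested were. Among them were Ddx11 (2.18, and 1.42 without replicate 2), a DNA helicase gene of sister chromatid cohesion, and Ddx20 (1.91), whose protein binds the SMN complex. Ddx1 (1.35) and Dhx40 (1.18) were called too. Dhx30, for mitochondrial ribosome assembly, was higher (1.79, SD 1.76), but had 0.85 without replicate 2 (edgeR adjusted p = 0.195) and lost the call without replicate 1 (0.0798) and with DESeq2 (0.0605). Ddx60, in antiviral sensing, was not called, with 8 exonic and 27 intronic crosslinks.

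As other RNA helicases outside the symbol rule, 19 genes were listed. Of the 12 tested, 5 were higher in exon share, 1 was lower and 6 were not called. Over all genes tested, 18.5% were higher and 24.9% lower. Snrnp200, which unwinds the U4 and U6 duplex, was higher in exon share (log2 difference 3.75). Tdrd12, a germline helicase of the piRNA pathway, was the lower gene (-1.12).

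The introns of helicase genes were next set against the remaining introns of the transcript, with the expected split given by length, in an exact binomial test (two-sided) run on every library separately. A call needed each of the 3 libraries to pass an adjusted p of 0.05 with the same sign. Of 425 introns of 24 helicase genes, 2 were higher, against 0.313% of 75071 introns of all genes tested, and 0 were lower, against 0.153%. At an unadjusted p under 0.05 in all libraries, 4 were higher and 2 lower. The share of all introns at that limit is not given here, so these counts cannot be compared with other genes. With the libraries summed, 14 were higher, where 4.02% of all introns tested were, and 11 lower, where 2.77% were. Both introns called were intron 11 of 12, counted from the 5' end, in the paralogs Ddx17 and Ddx5.

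Intron 11 of Ddx17 (chr15:79416116-79420157, 4042 nt) had 60, 80 and 65 crosslinks, and the 11 other introns together had 12, 11 and 21 over 10238 nt. It held 82.3% of intronic crosslinks on 28.3% of intronic length. The log2 fold in crosslinks per nt was 3.57 ± 0.60 (SD, n = 3), with a highest adjusted p of 3.63e-16 over the libraries by the exact binomial test. Intron 11 of Ddx5 (chr11:106673520-106674784, 1265 nt) had 30, 20 and 41 crosslinks, and the other introns together had 4, 6 and 12 over 3354 nt. It held 80.5% of intronic crosslinks on 27.4% of intronic length, with a log2 fold of 3.46 ± 0.62 (SD, n = 3). Its highest adjusted p in that exact test was 4.56e-05. In both genes each library gave intron 11 the larger count, and both calls stayed when each replicate was left out in turn. Outside intron 11, the introns with most crosslinks were intron 3 of Ddx17, with 1, 7 and 10 crosslinks, and intron 2 of Ddx5, with 2, 2 and 5.

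**Figure D3:**
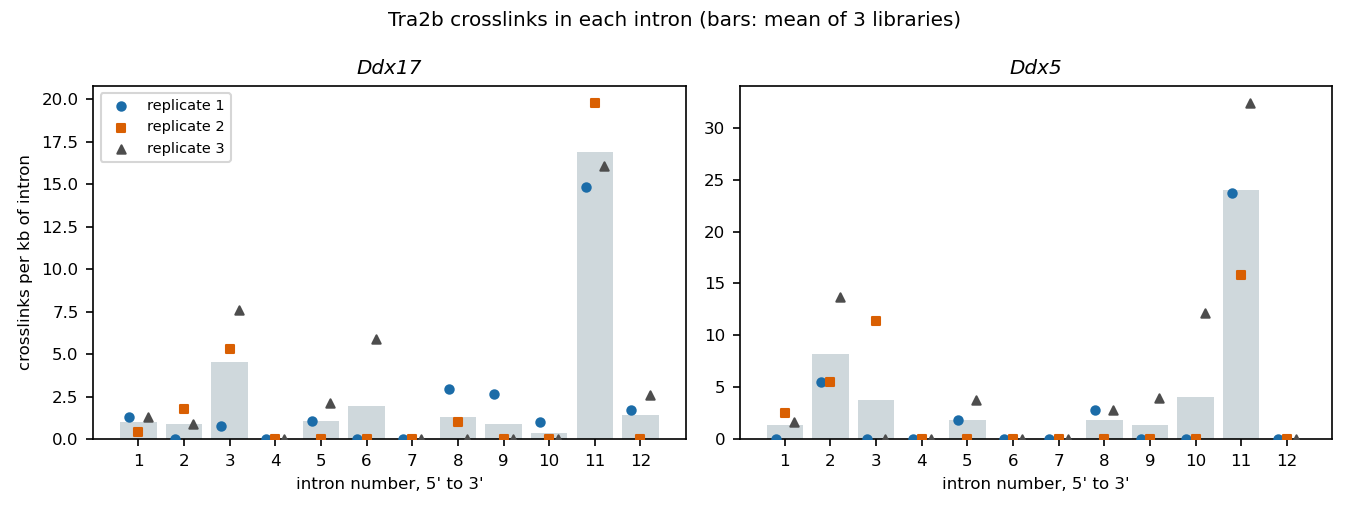
Crosslinks per kb in each intron of Ddx17 and Ddx5, with a marker per library and bars at the mean. In Ddx17, intron 11 had 14.8, 19.8 and 16.1 crosslinks per kb, and in Ddx5 it had 23.7, 15.8 and 32.4, above every other intron of the gene in each library.

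Within intron 11 the crosslinks were spread along the whole length. In Ddx17 4 equal parts, taken from the 5' end, held 41, 45, 57 and 62 crosslinks. In Ddx5 they held 27, 21, 18 and 25. The annotation differs between the paralogs. In Ddx5, 19 of 55 annotated transcripts hold the whole of intron 11 inside an exon, with 4 for intron 12 and fewer elsewhere. In Ddx17, 0 of 11 do. Exons that overlap only part of an intron do not enter these numbers. When exons of all annotated transcripts were counted, the log2 difference in exon share of Ddx17 was 2.13, against 0.23 with the canonical transcript. For Ddx5 it was 4.56, against 1.54 with the canonical transcript. How many intron 11 crosslinks lie in such exons is not given here. Intron 11 of Ddx5 also contains the microRNA gene Mir3064, with 2, 1 and 0 crosslinks, and a further annotated microRNA gene with 2, 1 and 4, and its log2 fold was 3.50 without nucleotides in exons of other genes. Alternative exons that lie wholly inside an intron were not set apart from the rest of it. A 182-nt exon of Ddx5 had 7, 4 and 4 crosslinks (log2 fold 0.38 ± 0.76), a 221-nt exon had 3, 4 and 8 (-0.04 ± 0.61), and a 236-nt exon of a nonsense-mediated decay transcript of Ddx17 had 4, 2 and 2 (-0.42 ± 0.69). Over 13 alternative exons tested in 5 helicase genes, 0 were called by the exact binomial test, against 0.144% higher and 0% lower of 5547 in all genes, and 0 had an unadjusted p under 0.05 in all libraries. With the libraries summed, where 3.61% of all alternative exons were higher and 0.216% lower, 1 was lower, in intron 7 of Ddx50, and 1 was higher, a 305-nt exon in intron 6 of Ddx24 with 1, 1 and 5 crosslinks.

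**Figure D4:**
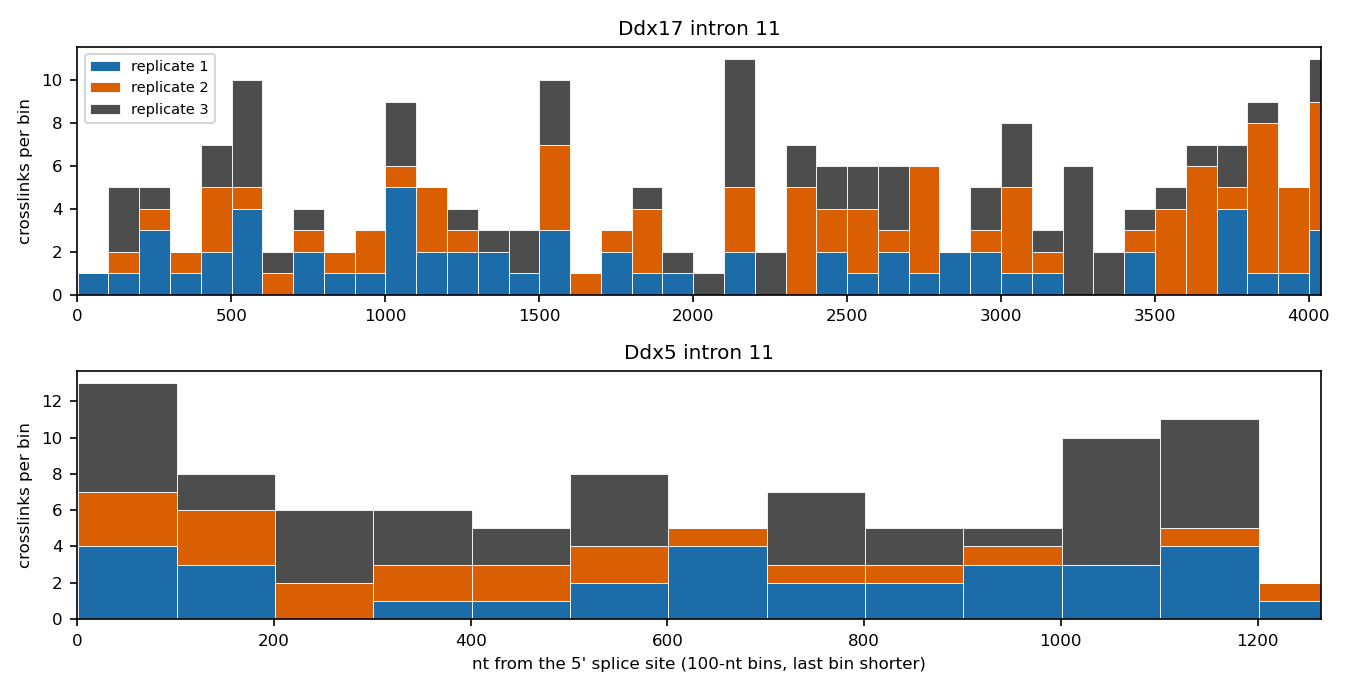
Crosslinks in 100-nt bins along intron 11 of Ddx17 and of Ddx5, from the 5' splice site, stacked by library. No bin held more than 13 crosslinks, and all 3 replicates contributed along both introns.

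Intron 11 had 1.53 GAA triplets per 100 nt in Ddx17, where the other introns ranged from 0.721 to 2.35. In Ddx5 it had 2.06, above every other intron of the gene except the 83-nt intron 7 (2.41). The 60 nt with most crosslinks in each intron, which are shown because the introns hold the called signal, contained 1 GAA each and were 33.3% purine, below the 46.4% and 48.8% of the whole introns. Capitals mark GAA, here and in all sequences below. The window of Ddx17 (chr15:79416116-79416175, minus strand) lies at the 3' end of the intron and had 4, 7 and 2 crosslinks, and that of Ddx5 (chr11:106674678-106674737, minus strand) begins 48 nt into the intron and had 4, 2 and 5.
Ddx17 intron 11: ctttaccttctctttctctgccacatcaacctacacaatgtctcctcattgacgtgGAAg
Ddx5 intron 11: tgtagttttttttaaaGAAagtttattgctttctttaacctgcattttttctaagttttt

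The exon that follows intron 11 is coding in both genes. Exon 12 of Ddx17 (237 nt) had 11, 13 and 7 crosslinks, a log2 fold of 1.83 ± 0.69 (SD, n = 3) over the rest of its transcript. Exon 12 of Ddx5 (225 nt) had 9, 2 and 19 crosslinks, a log2 fold of 0.81 ± 0.36. Neither was called by the exact test in all 3 libraries, while edgeR called exon 12 of Ddx17 higher (adjusted p = 0.00592). Their densest 60 nt, with 7, 3 and 3 crosslinks in Ddx17 (chr15:79415951-79416010) and 8, 2 and 16 in Ddx5 (chr11:106673379-106673438), are shown because these stretches of the paralogs share a run of 11 nt, actttctttac, and hold 1 and 0 GAA.
Ddx17 exon 12: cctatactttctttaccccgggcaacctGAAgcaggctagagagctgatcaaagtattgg
Ddx5 exon 12: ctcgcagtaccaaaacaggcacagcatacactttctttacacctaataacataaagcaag

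Each exon was compared with the rest of its transcript in the same way, for 484 exons of the 27 helicase genes with at least 20 exonic crosslinks. By the exact binomial test 0 exons were called higher, against 0.164% of 58715 exons of all genes tested, and 2 were called lower, against 0.305%. At an unadjusted p under 0.05 in all 3 libraries, 2 exons were higher, exon 3 of Ddx5 and exon 7 of Ddx46. The share of all exons at that limit is not given here, so this count cannot be compared with other genes. With edgeR's quasi-likelihood test on the same exons, 7 helicase exons were higher (2.06% of all exons tested were) and 7 lower (1.7% of all exons tested were). With the libraries summed, the exact test called 25 higher, where 5.18% of all exons tested were, and 9 lower, where 3.23% were. Only 41 of the 484 exons had at least 10 crosslinks with 1 or more in each library, and the depth limits what the test within each library can call.

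Both exons called lower were last exons, from the 27 last exons tested in helicase genes. In all genes, 165 of 3574 last exons (4.62%) were called lower. These 165 made up most of the 179 exons called lower in all genes. Exon 13 of Ddx5 had 14, 6 and 42 crosslinks over 1903 nt, of which 404 nt are coding, and the other 12 exons had 56, 22 and 150. Its log2 fold was -2.06 ± 0.09 (SD, n = 3), with a highest adjusted p of 0.0456 by the exact binomial test, and 0.0503 when each nucleotide was counted once. Exon 24 of Ddx46 had 8, 0 and 21 crosslinks over 2473 nt, against 74, 23 and 114 in the rest (log2 fold -3.36 ± 1.65, with 0.000414 as the highest adjusted p of the exact test). All 7 exons called lower by edgeR were last exons too, in Ddx1, Ddx5, Ddx21, Ddx25, Ddx46, Dhx36 and Dhx40. The share of last exons among the lower calls of edgeR in all genes is not given here. Among 27 last exons of helicase genes, 59.3% were below the rest of the transcript in all 3 libraries, close to the 57.4% of 3547 last exons of other genes.

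Over whole transcripts, the coding sequence of helicase genes had 3.52, 2.96 and 7.74 crosslinks per kb in replicates 1, 2 and 3, and the 3' UTR had 1.71, 0.868 and 3.00. The 5' UTR lay between in replicates 1 to 3, with 2.23, 1.07 and 4.73. Coding sequence held 78.3% ± 4.31 (SD, n = 3) of exonic helicase crosslinks, and 78.4% ± 2.82 in other genes. That difference was smaller than the spread between replicates.

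Of the helicase exons with 10 or more crosslinks and 1 in each library, the 10 that led in mean log2 fold were chosen by their values, so their folds are a description, and any p given for them comes from the test over all exons. They lay in Dhx40 (exon 17), Ddx5 (exons 3 and 11), Ddx46 (exons 5, 6 and 7), Ddx25 (exon 10), Ddx24 (exon 2), Ddx17 (exon 12) and Ddx39a (exon 2). Exon 17 of Dhx40 had 5, 1 and 12 crosslinks over 229 nt, a log2 fold of 2.73 ± 0.46 (SD, n = 3). Exon 3 of Ddx5 had 9, 4 and 21 over 97 nt, with 2.45 ± 0.28, and a highest adjusted p of 0.277 by the exact test but an edgeR adjusted p of 0.000150. Exons 5, 6 and 7 of Ddx46 are neighbours. Exon 5 had 7, 2 and 9 crosslinks, exon 6 had 6, 4 and 6, and exon 7 had 7, 3 and 9, with log2 folds of 2.44, 1.71 and 1.96. Of these 10 exons, edgeR called Dhx40 exon 17, Ddx5 exon 3, Ddx46 exon 5 and Ddx17 exon 12 higher. The other 3 helicase exons that edgeR called higher were exon 3 of Ddx25, exon 4 of Ddx42 and exon 17 of Ddx27.

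The 3 Ddx46 exons encode part of the charged stretch before the helicase core. Lysine made up 31.2%, 20% and 12% of their whole codons and glutamate 18.8%, 23.6% and 26%. Their sequence was 79.4%, 77.7% and 73.0% purine, with 6.19, 9.64 and 7.24 GAA per 100 nt. Purine runs such as these are what the densest 60 nt of each exon show, with 5, 2 and 7 crosslinks in exon 5 (chr13:55793218-55793277, plus strand), 4, 3 and 3 in exon 6 (chr13:55795528-55795587) and 4, 3 and 5 in exon 7 (chr13:55798317-55798376). Not all of the 10 exons had such runs. The densest 60 nt held 1 GAA in Ddx25 exon 10 (58.3% purine), Ddx5 exon 11 (51.7%) and Ddx17 exon 12 (50%). In Ddx5 exon 3 the densest 60 nt held 58.8% of the crosslinks on 61.9% of the length, so it was no denser than the whole exon. The windows of Dhx40 exon 17 (chr11:86661862-86661921, minus strand, 3, 0 and 9 crosslinks) and Ddx5 exon 3 (chr11:106677311-106677370, minus strand, 4, 3 and 13) are set beside those of Ddx46.
Ddx46 exon 5: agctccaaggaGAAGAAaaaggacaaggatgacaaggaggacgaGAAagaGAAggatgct
Ddx46 exon 6: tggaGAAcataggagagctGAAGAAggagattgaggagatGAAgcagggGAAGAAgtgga
Ddx46 exon 7: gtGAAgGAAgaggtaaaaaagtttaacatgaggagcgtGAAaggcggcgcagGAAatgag
Dhx40 exon 17: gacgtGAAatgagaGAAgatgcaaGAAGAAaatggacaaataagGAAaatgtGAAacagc
Ddx5 exon 3: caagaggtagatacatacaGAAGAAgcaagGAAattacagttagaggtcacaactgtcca

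Lysine-rich exons at the tail of the protein were then taken as coding exons with at least 20 whole codons, at least 15% lysine codons and their middle codon past 66.7% of the coding sequence. In 19 helicase genes there were 24 such exons. They held 17, 6 and 26 crosslinks over 2738 nt, or 6.21, 2.19 and 9.50 per kb, against 3.35, 2.49 and 6.27 per kb in the other coding exons of the same genes. The log2 ratio of the densities was 0.93, -0.07 and 0.62, a mean of 0.49 ± 0.51 (SD, n = 3), which is within the spread between replicates of 0. In 2299 other genes with such exons it was 0.77, 0.87 and 0.75. Without Ddx27 the helicase ratio was 0.83, -0.47 and -0.10, a mean of 0.08 ± 0.67, so that replicate 1 kept a higher density and replicate 3 did not. None of the 13 tail exons tested in helicase genes was called higher by the exact binomial test, where 0.756% of 1323 in all genes were, and 0 reached an unadjusted p under 0.05 in all libraries. The edgeR alternative called 1 of the 13, exon 17 of Ddx27.

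Helicase tail exons with at least 5 crosslinks were few. Exon 17 of Ddx27 had 2, 1 and 6 crosslinks over 95 nt, a log2 fold of 3.03 ± 0.26 (SD, n = 3; edgeR adjusted p = 0.0489), with 32.3% lysine codons. It took 24.3% of the coding crosslinks of the gene on 4.17% of its coding length. Exon 16 of Ddx27 had 0, 1 and 5 (17.6% lysine), exon 18 of Ddx54 had 2, 2 and 1 (23.5% lysine), and exon 19 of Ddx46 had 2, 0 and 5 (16% lysine). The last of these had a log2 fold of 0.14 ± 0.49 and did not stand out from its transcript. The densest 60 nt of Ddx27 exon 17 (chr2:166875515-166875574, plus strand, 2, 1 and 5 crosslinks), with 7 GAA, and of Ddx54 exon 18 (chr5:120764486-120764545, plus strand, 2, 1 and 1), with 2 GAA, show 2 tails of unlike GAA content.
Ddx27 exon 17: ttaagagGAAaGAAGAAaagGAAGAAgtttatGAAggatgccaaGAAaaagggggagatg
Ddx54 exon 18: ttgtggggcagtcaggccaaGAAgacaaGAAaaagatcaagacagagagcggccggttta

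Before 33.3% of the coding sequence lay 33 lysine-rich exons of 20 helicase genes, with 31, 48 and 83 crosslinks, or 5.90, 9.14 and 15.8 per kb against 3.19, 2.27 and 6.19 per kb in the other coding exons of these genes. The log2 ratio was 0.91, 2.02 and 1.36, above 0 in each library, and 1.012, 1.16 and 0.93 in other genes with such exons. No test of the difference between these exons and the tail exons was made. Exon 2 of Ddx24 (8, 8 and 26 crosslinks), the exons of Ddx46 and exon 2 of Ddx21 (3, 10 and 19) supplied 25.9%, 22.8% and 19.8% of these crosslinks. Exon 2 of Ddx24 is 726 nt long with 15% lysine codons, and exon 2 of Ddx21 is 660 nt long with 22.3% lysine codons and 7.27 GAA per 100 nt. In exon 2 of Ddx24 lay 8 of 13, 8 of 10 and 26 of 70 exonic crosslinks of the gene, so its share was lower in replicate 3. The densest 60 nt had 3, 3 and 5 crosslinks in Ddx24 (chr12:103390597-103390656, minus strand) and 0, 1 and 13 in Ddx21 (chr10:62434595-62434654, minus strand), where nearly all came from replicate 3.
Ddx24 exon 2: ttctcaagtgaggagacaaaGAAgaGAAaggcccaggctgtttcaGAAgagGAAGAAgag
Ddx21 exon 2: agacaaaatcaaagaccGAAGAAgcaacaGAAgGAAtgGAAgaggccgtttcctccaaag

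**Figure D5:**
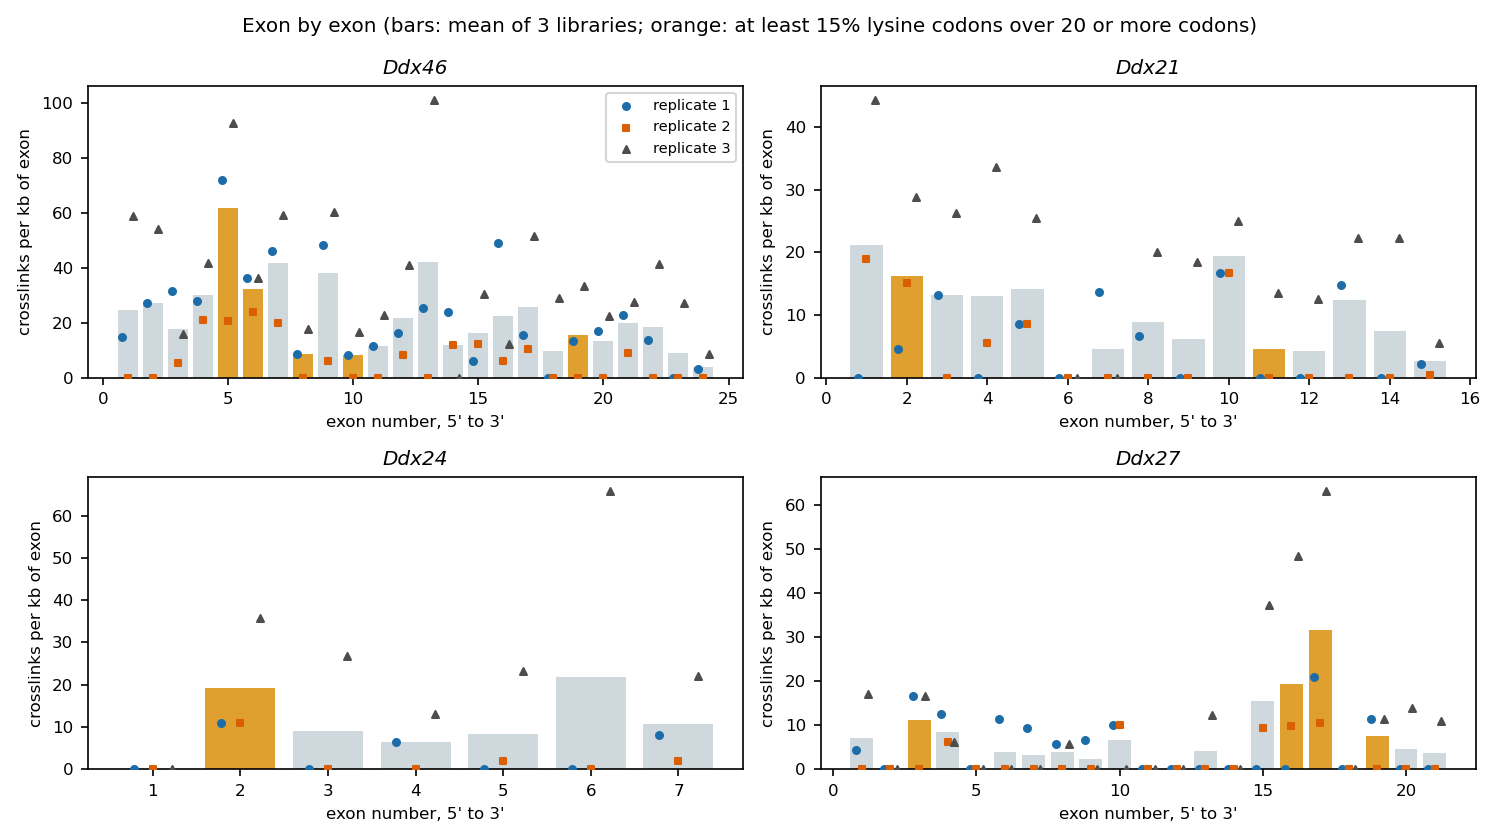
Crosslinks per kb by exon number in Ddx46, Ddx21, Ddx24 and Ddx27, with a marker per library and bars at the mean, where orange bars are exons of at least 20 codons with at least 15% lysine. Orange bars stand high at exons 5 and 6 of Ddx46, exon 2 of Ddx24 and exons 16 and 17 of Ddx27, but not at exons 8, 10 and 19 of Ddx46, and bars of other exons stand as high or higher, such as exons 7, 9 and 13 of Ddx46 and exon 6 of Ddx24.

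Across all helicase exons of at least 20 codons, density was lowest in the class with least lysine and highest in the class with most, in each library. Exons under 5% lysine had 2.50, 2.10 and 5.15 crosslinks per kb, exons from 5% to 10% had 4.02, 3.07 and 8.52, exons from 10% to 15% had 3.32, 2.67 and 8.33, and exons of 15% or more had 5.38, 6.35 and 12.4. The middle classes were not in order. In other genes the same classes rose in step, from 1.18, 1.08 and 2.26 per kb in the lowest to 7.003, 6.57 and 14.7 in the highest. GAA content rose over the helicase classes from 1.87 to 4.96 per 100 nt, so lysine and GAA content cannot be told apart here.

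The pentamer GAAGA and both of its shifted forms in a GAA repeat, which are AGAAG, or for the other one AAGAA, were searched on the sense strand around exonic crosslinks. The share of crosslinked positions with a pentamer centred within 30 nt was 41.3%, 51.4% and 42.0% in helicase genes, against 37.1%, 41.4% and 36.8% at all positions of the same exons. The ratio was 1.11, 1.24 and 1.14, a mean of 1.16 ± 0.07 (SD, n = 3), and 1.18 ± 0.09 in other genes. Helicase exons thus differed from other exons by less than the spread between replicates. The ratio was 1.26 within 10 nt and 1.09 within 50 nt.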

How the data were processed

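The authors minced testes to release germ cells, crosslinked these with ultraviolet-C light and made 3 iCLIP libraries. Each deposited file gives, for a nucleotide and strand, the count of unique cDNAs, neither normalised nor pooled. CPM values are crosslinks scaled to 1000000 in canonical exons and introns of protein-coding genes. The submitters' processing notes name Trim Galore 0.6.7, Bowtie 1.3.1, STAR 2.7.9a, UMI-tools 1.1.2 and build mm39, and the study names the iMAPS pipeline. The treatment of reads with several matches is not given in the sources used here.

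Counts were summed over exons and introns of GENCODE vM39 canonical transcripts with Python 3.11.15, pysam 0.24.0 and SciPy 1.17.1. Where genes overlap on a strand, a crosslink counted for each. Exon share was tested with edgeR 4.0.16 (quasi-likelihood, library and region as terms, region totals as library sizes), with DESeq2 1.42.0 as an alternative. Exons and introns were tested with a two-sided exact binomial test, adjusted by Benjamini-Hochberg over all exons or introns in each library, in genes with at least 20 crosslinks in them. Log2 folds have 0.5 crosslinks added to each count, which alone raises the fold of short exons with few crosslinks. In the pentamer comparison each position counted once.

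Simulated exon shares over 6907 genes gave back 99.5% of 200 genes changed by 3 on the log2 scale. The crosslink counts of these 200 genes and the simulated spread between libraries are not given here. The 99.5% therefore cannot be read as the recovery for genes with few crosslinks, uneven libraries or smaller changes. Of 200 exons simulated at 8-fold among 58715, the rule of all 3 libraries recovered 39.0%, so it misses many.

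The members, lists and tests were chosen with earlier results of these data known. Named were the 10 members with the highest mean CPM, every member, exon or intron called, the 10 exons with the highest fold among those with at least 10 crosslinks and 1 in each library, tail exons with at least 5 crosslinks, and members with no crosslink (there were 0). Others were named after their values were seen. Alternatives left out each replicate, counted each nucleotide once, left out nucleotides in exons of other genes, or changed transcripts, minima, lengths, lysine limits, windows or tools.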

Additional observations from a re-analysis of the deposited data

How the results depend on the processing

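Helicase genes in the highest 10% numbered 7 to 12 with a replicate left out. Members called higher in exon share numbered 8 to 15 with a replicate left out, where 12% to 23.7% of all genes tested were. With exons of all transcripts 22 members were higher (1677 over all genes), and with length offsets 3 (6.23% of all genes tested). Members called lower numbered 0 without replicate 1, 4 without replicate 2 and 1 without replicate 3. Over all genes tested, 1009 of 5955, 1882 of 5328 and 884 of 5421 were lower in these settings. With all transcripts 0 members were lower (1820 over all genes), with DESeq2 0 (1031 of 6907 genes) and with length offsets 4 (14.8% of all genes tested). With length offsets the direction turned in 13 of 37 members, among them Ddx5 (-1.68), Ddx17 (-1.78), Ddx19b (-1.41), Ddx20 (-0.62), Ddx25 (-0.58), Ddx41 (-0.52) and Dhx40 (-0.0096). Ddx17 ranged from -0.084 (without replicate 2) to 0.61 (without replicate 3) with a replicate left out, and Ddx50 was 1.72 with all transcripts. Exons called higher numbered 0 to 1 with a replicate left out, 25 with the libraries summed and 7 with edgeR. Exons called lower numbered 2 to 4 with a replicate left out, 1 with each nucleotide counted once, 9 with the libraries summed, 1 with a minimum of 1 crosslink and 7 with edgeR. Introns called higher numbered 14 with the libraries summed (where 4.02% of all introns tested were), and introns called lower 0 to 1 with a replicate left out and 11 with the libraries summed (where 2.77% were). Alternative exons called higher numbered 1 with the libraries summed. The log2 density of tail exons was 0.27 to 0.78 with a replicate left out, 1.22 at 20% lysine and 1.43 before 33.3% of the coding sequence. The pentamer ratio was 1.13 to 1.19 with a replicate left out, 1.26 within 10 nt and 1.09 within 50 nt. Both intron 11 calls held with each replicate left out and with each nucleotide counted once. They also held without nucleotides in exons of other genes and with the libraries summed. The intron test was not run with exons of all transcripts, where 19 of 55 Ddx5 transcripts hold intron 11 inside an exon. The lack of RNA levels and of a control library, and the few crosslinks per exon, limit all of these. The cause of the changes was not tested, except that summing the libraries drops the need for each library to pass on its own. No paired analysis was possible because the 3 libraries form 1 group and no samples of different groups could be paired, while exons and introns were compared within each library.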

Other observations

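Within the spans of the 51 helicase genes, crosslinks covered 3394 nucleotides on the sense strand, of which 79 (2.33%) were seen in 2 or more libraries and 2 in all 3. Those 2 nucleotides lay in Ddx5 and Ddx17, which also had the most nucleotides in 2 or more libraries (26 and 16), followed by Ddx25 (9) and Ddx46 (8).

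With the libraries summed, 14 of 425 introns of helicase genes were higher by the exact binomial test, no more than the 4.02% of all introns tested, and they included introns that did not pass in each library. Intron 1 of Ddx50 had 7, 13 and 15 crosslinks in replicates 1, 2 and 3 (log2 fold 2.13 ± 0.68, SD, n = 3). Intron 6 of Ddx24 had 5, 4 and 20 of the 5, 4 and 23 intronic crosslinks of that gene (3.04 ± 0.46). It contains annotated exons of other transcripts of the gene. A 1646-nt exon had 2, 2 and 9 of its crosslinks, and a 305-nt exon had 1, 1 and 5. With exons of all transcripts counted, the log2 difference in exon share of Ddx24 was 3.41, against 1.79 with the canonical transcript. Intron 6 of Dhx29, a helicase gene of translation initiation, had 5, 8 and 2 crosslinks (3.52 ± 1.85). Intron 23 of Dhx57, the last of that gene, had 2, 10 and 4 (3.00 ± 0.65), and intron 10 of Dhx15 had 6, 2 and 5 (3.11 ± 1.00).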
